A study of Mus musculus with 12 samples.

Results

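The small leucine-rich proteoglycans described here are 10 genes, Chad, Dcn, Lum, Bgn, Fmod, Ogn, Omd, Prelp, Aspn and Podn, of the 16411 genes in a bulk RNA sequencing table of mouse mammary tumors and benign mammary tissue. They were taken by symbol as members of 1 matrix protein family, with Chad set against the other 9, which are called the stromal members. The choice was made with their difference between tumors and benign tissue already known, so their values in that comparison are a description and carry no test. All 12 samples were MMTV-Neu-NDL-YD5 transgenic, from untreated female mice on an FVB background, 6 of mammary tumors and 6 of mammary tissue with no visible tumor, with the tumors and the benign samples taken from different mice. The transgene carries an activated HER2 receptor under the MMTV promoter, which is active mainly in mammary epithelium, so the benign samples carried it too and no sample came from a mouse without it. The labels give no age for any mouse.

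Proteins of this family have a curved core of leucine-rich repeats that lies along collagen fibrils and sets their width, spacing and crosslinking. Many carry chondroitin, dermatan or keratan sulfate chains, and several bind growth factors or cell surface receptors. In the mammary gland they are known mainly as products of the fibroblasts of the stroma. Chad (chondroadherin) was first described in cartilage and binds collagen and integrins.

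Total counts per library ranged from 5240853 to 8588567. Values are given as CPM, counts scaled by TMM to a common library size, and fold changes are log2 values from an edgeR fit of all genes, tumor over benign, with their standard error (SE). The fit kept 13191 genes with enough counts, and 9 of the 10 members were among them. Erbb2, the gene of the receptor in the transgene, ranged from 44.8 to 73.7 CPM over the benign samples and from 1989 to 16634 CPM over the tumors, so every library matched its label. The labelled tissue carried its defining markers: 5 epithelial markers had a summed median of 1068 CPM for benign samples and 3316 CPM for tumors, and 7 adipocyte markers to 9855 CPM and 34.7 CPM. Benign samples 3, 4 and 6 stood apart by 8 skeletal muscle markers, which summed to 49903, 32897 and 84915 CPM against 15.6 to 348.5 CPM in the other benign samples and 0.843 to 146 CPM in tumors. Their part in the results below was not tested, but the fold changes of the members and the counts of the gene lists were also computed without these 3 samples.

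Chad was the member that was higher in tumors. In benign tissue it was near the limit of detection, with 2, 1, 1, 4, 1 and 1 counts in benign samples 1 to 6, or 0.119 to 0.713 CPM. In tumors 1 to 6 it stood at 382, 33.0, 58.5, 91.4, 186 and 265 CPM. The lowest tumor was far above the highest benign sample, and the tumors themselves spread over an 11.6-fold range. Its mean was 0.273 ± 0.236 CPM over the benign samples and 169 ± 135 CPM over the tumors (SD, n = 6 each). The fitted log2 fold change was 9.31 (SE 0.81), and 9.75 (SE 1.30) without the 3 benign samples with muscle transcripts. Since only 10 counts lay behind the benign value, the ratio of the summed counts, scaled for library size, was 677 with an exact 95% interval of 368 to 1413, which covers counting error only. A fitted log2 fold change at least as high as that of Chad was found for 5 of the genes tested, or 0.0379%.

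The stromal members were lower in tumors. Dcn (decorin), which binds collagen fibrils and TGF-beta, ranged from 609 to 1088 CPM in benign tissue with a median of 721 CPM, and from 24.8 to 46.6 CPM in tumors with a median of 34.4 CPM. Prelp, a proteoglycan with a basic end that binds heparan sulfate and collagen, ranged from 481 to 1189 CPM (median 929) in benign tissue and from 12.3 to 40.0 CPM (median 21.85) in tumors. The groups did not overlap for either gene. Fitted log2 fold changes were -4.47 (SE 0.21) for Dcn and -5.24 (SE 0.36) for Prelp, the lowest of the 10. A fitted fold change as low as that of Dcn or lower was found for 3.40% of the genes tested. Lum (lumican), a keratan sulfate proteoglycan best known from the cornea, went from 322 ± 96.4 CPM to 13.5 ± 2.83 CPM (SD, n = 6 each), a log2 fold change of -4.58 (SE 0.24).

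Ogn (osteoglycin, also called mimecan) went from 103 ± 44.5 CPM to 6.83 ± 2.61 CPM, and Podn (podocan, a collagen-binding member) from 64.1 ± 27.6 CPM to 4.38 ± 1.46 CPM (SD, n = 6 each). Their log2 fold changes were -3.91 (SE 0.33) and -3.87 (SE 0.32). Fmod (fibromodulin), which shapes collagen fibrils in tendon, had the widest range of the stromal members over the benign samples, from 12.4 CPM in benign 6 to 62.4 CPM in benign 1, a 5.02-fold range, while its tumor values lay between 2.81 and 6.81 CPM. The log2 fold change of Fmod was -2.60 (SE 0.40). Leaving out benign 1 moved it to -2.24.

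Aspn (asporin), a close relative of decorin that binds TGF-beta, and Bgn (biglycan), which carries chondroitin or dermatan sulfate and can act on Toll-like receptors when released from the matrix, showed the smallest differences. Aspn ranged from 27.8 to 44.9 CPM in benign tissue and from 4.45 to 11.6 CPM in tumors, with a log2 fold change of -2.03 (SE 0.22). Bgn ranged from 175 to 363 CPM (median 279) in benign tissue and from 81.3 to 143 CPM (median 90.9) in tumors, with a log2 fold change of -1.42 (SE 0.20). Both remained free of overlap between the groups. Omd (osteomodulin), a keratan sulfate member of bone, had too few counts for the fit, 107 in all in benign tissue and 15 in tumors. It was measured at 0.792 to 3.94 CPM in benign tissue and 0.00 to 0.843 CPM in tumors, where benign 3 fell below tumor 3. The ratio of its summed counts, scaled for library size, was 8.14 in favor of benign tissue (exact 95% interval 4.72 to 15.1, counting error only).

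In all, 1 of the 9 members in the fit was called higher and 8 were called lower at an adjusted p under 0.1, the threshold of the study, and in all 9 the tumors and the benign samples did not overlap. Over all genes tested, 63% were called in either direction, 28.2% higher and 34.8% lower, every tumor lay above every benign sample for 14.7%, and every tumor lay below for 21.2%. Since the members were chosen on this comparison, nothing is read from their count. The median log2 fold change was -3.87 over the 9 members and -0.06 over all genes tested. Without the 3 benign samples with muscle transcripts, the 8 stromal members had log2 fold changes between -5.00 for Prelp and -1.63 for Bgn. In bulk tissue, fewer cells of a type and less RNA per cell cannot be told apart.

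**Figure D1:**
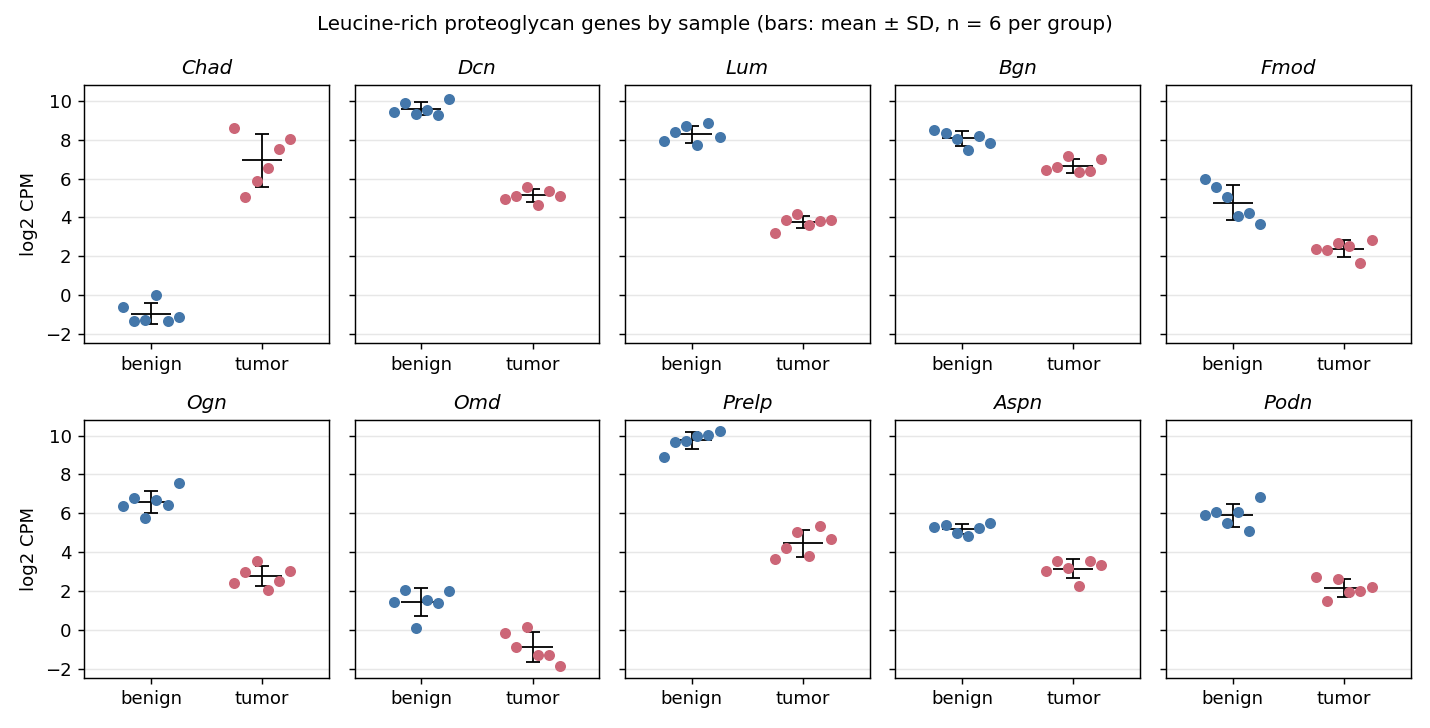
The 10 members by sample, with log2 CPM (2 counts added) on the vertical axis, 1 point per sample, and bars for the mean ± SD of 6 benign (blue) and 6 tumor (red) samples. Chad is the panel in which tumors lie above benign tissue, and Omd the panel in which the groups overlap.

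The starts of 4 members are shown as DNA because they bracket the range of the differences: Chad, the member higher in tumors, Prelp, the lowest, and Bgn and Aspn, the least lowered. Each run is the 250 bases before a RefSeq transcript start, read 5′ to 3′ on the strand of the gene, in GRCm38.p6: chr11:94564797-94565046 (+) for Chad, chr1:133921402-133921651 (-) for Prelp, chrX:73483351-73483600 (+) for Bgn and chr13:49544193-49544442 (+) for Aspn. Capitals mark matches on either strand to 6 motifs searched after the values were known: the TATA box as TATAAA, the CCAAT box as CCAAT, the GC box as GGGCGG, the AP-1 motif as TGANTCA, the ETS motif as CCGGAA and the SOX motif as AACAAT.
Chad: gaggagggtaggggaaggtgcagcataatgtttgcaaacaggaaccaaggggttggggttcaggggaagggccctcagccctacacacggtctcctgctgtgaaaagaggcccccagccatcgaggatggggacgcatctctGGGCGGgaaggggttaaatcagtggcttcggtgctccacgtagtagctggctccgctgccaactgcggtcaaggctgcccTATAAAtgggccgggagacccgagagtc
Prelp: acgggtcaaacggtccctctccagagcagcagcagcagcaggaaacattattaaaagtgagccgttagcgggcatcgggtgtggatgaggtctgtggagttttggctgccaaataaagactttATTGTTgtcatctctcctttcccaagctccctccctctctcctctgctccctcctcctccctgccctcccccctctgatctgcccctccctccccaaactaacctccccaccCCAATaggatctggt
Bgn: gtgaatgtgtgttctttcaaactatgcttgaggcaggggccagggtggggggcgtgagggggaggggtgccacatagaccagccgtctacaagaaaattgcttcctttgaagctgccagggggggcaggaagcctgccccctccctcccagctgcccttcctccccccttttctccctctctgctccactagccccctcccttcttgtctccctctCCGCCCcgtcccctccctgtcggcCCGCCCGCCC
Aspn: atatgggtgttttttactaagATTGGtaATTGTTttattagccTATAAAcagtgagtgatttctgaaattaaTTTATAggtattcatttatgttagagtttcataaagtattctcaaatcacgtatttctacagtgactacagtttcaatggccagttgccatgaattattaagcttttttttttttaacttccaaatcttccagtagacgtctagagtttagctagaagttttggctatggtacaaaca

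The Chad window held 1 TATA box near its end and 1 GC box, with 10 CpG dinucleotides and 60.4% GC. The Bgn window held 3 GC boxes, 2 of them overlapping by 2 bases, and no TATA box. The Prelp window held 1 CCAAT and 1 SOX match, and the AT-rich Aspn window held 2 TATA, 1 CCAAT and 1 SOX match. Over all 32851 windows of this length, the TATA box was found in 12.4%, the CCAAT box in 33.9%, the GC box in 32.7%, the AP-1 motif in 6.75%, the ETS motif in 12.03% and the SOX motif in 9.42%, with a median of 6 CpG and 52.4% GC. Of the other members, Ogn held 2 TATA matches that overlap, Fmod and Omd held no match to the 6 motifs, and Podn, with windows at 2 starts, held 32 CpG in 1 of them. Dcn and Lum were not matched. A match is a string of letters and not a shown site.

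In the GENCODE M21 annotation of GRCm38, most members lie in clusters of the family. Dcn and Lum sit with Kera and Epyc within 203 kb of chromosome 10, Aspn, Omd and Ogn with Ecm2 within 120 kb of chromosome 13, and Prelp and Fmod with Optc within 151 kb of chromosome 1. Podn lies on chromosome 4 and Bgn on the X chromosome, away from the others. Chad (chromosome 11, 94565047 to 94569127, plus strand) lies inside Acsf2, a gene for an acyl-CoA synthetase family member on the minus strand. In coding transcripts, the only ones examined, Chad shares 0 of its 1680 exonic bases with exons of Acsf2. The chromosome 13 cluster lies inside Cenpp, a centromere protein gene on the opposite strand, again with 0 shared exonic bases in coding transcripts.

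The genes that hold or flank the members were looked up in the same fit, and those given here were named after their values were seen. The flanking genes Ccer1, Tes3-ps, Slc1a7 and Atp2b3 were not in the fit. Acsf2 ranged from 61.9 to 149 CPM in benign tissue and from 72.8 to 225 CPM in tumors, with overlap, a log2 fold change of 0.64 (SE 0.28) and an adjusted p of 0.066 in edgeR. That call was lost without benign 3, without benign 5 or without tumor 6. Cenpp did not pass the test (3.78 ± 3.36 CPM and 4.68 ± 1.16 CPM, n = 6 each, edgeR adjusted p = 0.66). Atp2b4, which encodes a plasma membrane calcium pump, lies 109263 bases from Prelp and 236213 bases from Fmod. It fell by 3.36 on the log2 scale (edgeR adjusted p = 4.6e-08). On the other side, Btg2, 26893 bases from Fmod, fell by 1.62 (edgeR adjusted p = 0.0021). Haus7, 24558 bases from Bgn, fell by 0.92 (edgeR adjusted p = 0.0015). Echdc2, 68992 bases from Podn, rose by 0.93 (edgeR adjusted p = 0.012). Btg1, before Dcn and Lum (0.35, edgeR adjusted p = 0.33), and Nol8, after Aspn, Omd and Ogn (-0.27, edgeR adjusted p = 0.23), did not pass. Of the genes flanking Chad, Rsad1 did not pass (0.15, edgeR adjusted p = 0.42) and Lrrc59 fell by 0.44 (edgeR adjusted p = 0.052).

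Levels of different genes were compared after dividing CPM by the length of the longest coding transcript, as CPM per kb. On that scale the 10 members summed to 867 to 1287 CPM per kb in benign tissue (median 977) and 99.9 to 297 CPM per kb in tumors (median 172). In benign tissue Dcn made up a median of 45.2% of this sum, Prelp 25.1%, Lum 11.8%, Bgn 11.8% and Chad 0.0083%. In tumors Chad made up a median of 51.7%, with a range of 19.7% to 76.5%, Bgn 24.8%, Dcn 12.1%, Lum 3.53% and Prelp 4.104%. Chad ranked last of the 10 in every benign sample and first or second in every tumor, where Bgn took the other of these ranks. Tumors 2 and 3 were the samples in which Bgn came before Chad. Dcn came next after both in every tumor, with shares of 5.93% to 19.7%, and in tumor 2 Dcn and Chad were level, at 19.7% each. Lum and Bgn were alike in benign tissue, with shares of 8.80% to 18.5% and 7.23% to 17.3%.

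**Figure D2:**
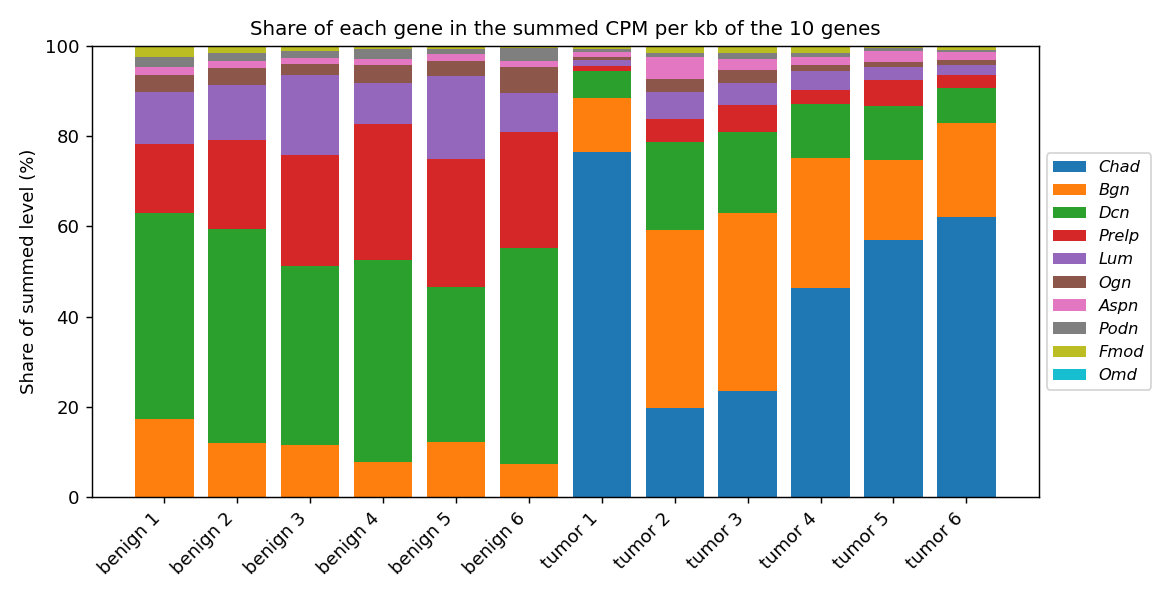
Share of each member in the summed CPM per kb of the 10 genes, in percent, for each of the 12 samples (1 stacked bar per sample). Dcn (green) and Prelp (red) fill most of the benign bars, and Chad (blue) and Bgn (orange) most of the tumor bars, with Chad between 19.7% in tumor 2 and 76.5% in tumor 1.

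Fibroblast markers were lower in tumors as well. Of 10 markers (Pdgfra, Pdgfrb, Thy1, Dpt, Pi16, Fbln1, Fbn1, Mfap5, Fap and Clec3b), 10 were called lower, with a median log2 fold change of -2.64, and 9 did not overlap between the groups. The call of Fbn1 (log2 fold change -0.59) was lost without benign 1, benign 2, tumor 4 or tumor 6. Their summed level was 965 to 1564 CPM over the benign samples and 139 to 244 CPM over the tumors. The 6 myofibroblast and perivascular markers were all called lower, from a summed median of 1954 CPM to 233 CPM. Of all genes tested, 34.8% were called lower, and every tumor lay below every benign sample for 21.2%. None of the 10 fibroblast markers was at 0 counts in any sample. The part of these markers in the lower levels of the stromal members was not tested.

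Read per CPM of the summed fibroblast markers, the stromal members separated into groups. Prelp still differed the most, from a median ratio of 0.811 in benign tissue to 0.115 in tumors, followed by Dcn, from 0.660 to 0.185. These correspond to log2 ratios of -2.82 and -1.84. Lum, Ogn and Podn were also lower in every tumor than in any benign sample on this scale, with log2 ratios of medians of -1.58, -1.33 and -1.01. Bgn turned the other way: its ratio was 0.144 to 0.314 in benign tissue and 0.418 to 0.755 in tumors, so every tumor lay above every benign sample (log2 ratio of medians 1.07). Aspn (0.54), Fmod (-0.03) and Omd (-1.09) overlapped between the groups. The ratios depend on which genes are summed, and they describe transcripts and not cells.

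**Figure D3:**
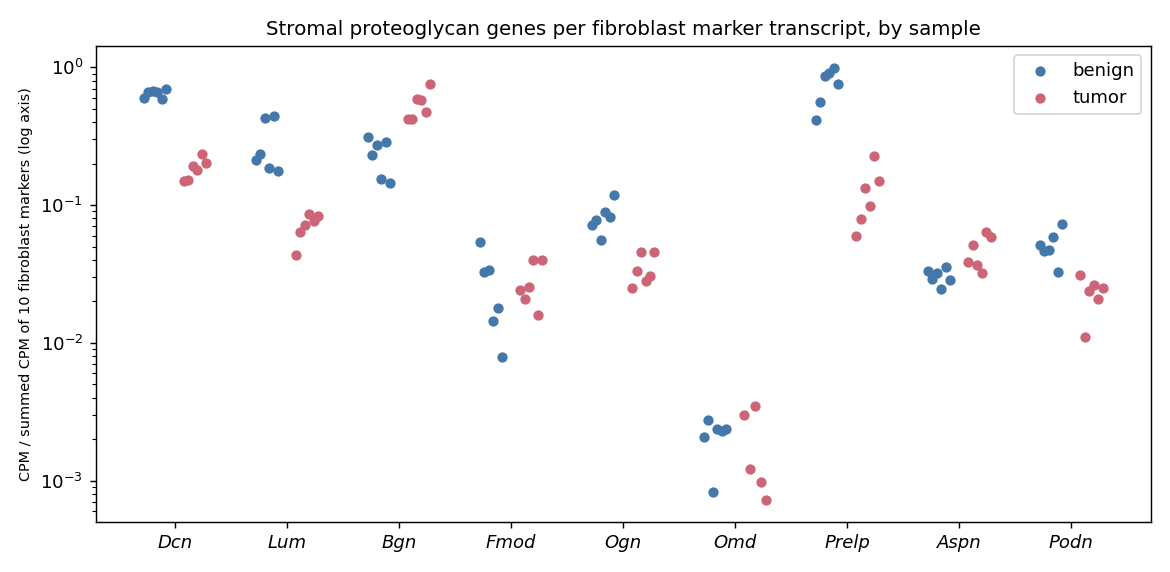
The 9 stromal members by sample, each as CPM divided by the summed CPM of 10 fibroblast markers (log axis), with 6 benign (blue) and 6 tumor (red) points per gene. Omd was at 0 counts in tumor 6, so that point is not drawn. Tumors lie above benign tissue for Bgn and below it for Dcn, Lum, Ogn, Prelp and Podn.

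Within a group, the members varied to different degrees. Apart from Omd, the highest tumor exceeded the lowest by 1.76-fold for Bgn, 1.88-fold for Dcn and 3.25-fold for Prelp, against 11.6-fold for Chad. In benign tissue the ranges ran from 1.62-fold for Aspn to 5.97-fold for Chad, whose benign values rest on 1 to 4 counts. Correlations of log2 CPM were computed within each group of 6 samples, 28 in all, with two-sided exact permutation tests over the pairings of samples. No relation passed Benjamini-Hochberg adjustment over the 28 at 0.05, and 4 had an unadjusted p under 0.05.

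No relation of Chad with a stromal member across tumors passed. Pearson's r with the other 9 members ran from -0.63 with Lum to 0.58 with Podn, with a median of -0.16, and r with Podn was -0.54 once tumors 1 and 2, the farthest from the median of Chad, were left out. With Erbb2 r was 0.18 (Spearman's rho 0.26, exact permutation p = 0.75 and 0.66, adjusted 0.88 and 0.80). With Sox9, which encodes a cartilage transcription factor also found in mammary epithelium, r was 0.09 (rho 0.49, exact permutation p = 0.89 and 0.36, adjusted 0.94 and 0.71). With Acsf2, a relation added after the values were seen, r was 0.95 and rho 0.94 (exact permutation p = 0.0069 and 0.017, adjusted 0.12 and 0.23), and r was 0.99 without tumors 1 and 2.

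**Figure D4:**
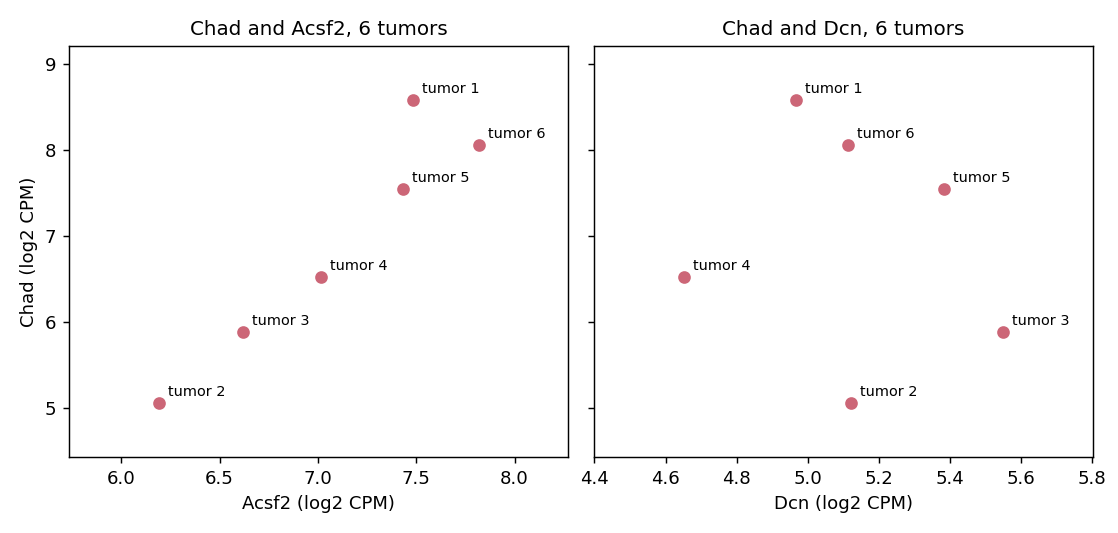
Chad against Acsf2, the gene that contains it (left), and against Dcn (right), both axes in log2 CPM with 2 counts added, 1 point for each of the 6 tumors. Chad and Acsf2 order the tumors almost alike (rho 0.94), while Chad and Dcn do not (rho -0.43).

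The relations of Dcn with the other stromal members were more often positive than negative, but several of these signs rested on 2 samples. In benign tissue its r with them ran from -0.37 with Lum to 0.91 with Podn (median 0.47), and in tumors from -0.22 with Fmod to 0.85 with Prelp (median 0.63). For Podn in benign tissue rho was 0.94, with exact permutation p = 0.0083 for r and 0.017 for rho (adjusted 0.12 and 0.23), and r was 0.98 without benign 2 and benign 6. For Prelp in tumors rho was 0.83, with exact permutation p = 0.033 for r and 0.058 for rho (adjusted 0.23 and 0.33), and r was 0.94 without tumors 3 and 4. The r of Dcn with Ogn in benign tissue was 0.86 (rho 0.83, exact permutation p = 0.019 and 0.058, adjusted 0.18 and 0.33) and was 0.47 without benign 2 and benign 6. Without the same 2 samples, r with Aspn in benign tissue went from 0.61 to -0.56 and r with Prelp from 0.32 to -0.17. That with Fmod went from -0.24 to 0.03. Without tumors 3 and 4, r in tumors turned negative for Bgn (0.59 to -0.22) and Ogn (0.78 to -0.11). The same held for Omd (0.35 to -0.54) and Podn (0.20 to -0.46), while Lum, Prelp and Aspn stayed positive.

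The genes whose log2 CPM over the 12 samples came closest to that of Chad were Aqp5, a water channel of glands, with r = 0.994, St6galnac4, a sialyltransferase (0.994), Phlpp1, a phosphatase (0.990), Trib1, a pseudokinase (0.990), and Stk25, a kinase (0.988). For Dcn they were Scn7a, a sodium channel family gene, Pcolce, an enhancer of procollagen processing, Kif26a, Tshz2 and Ccdc80, with r from 0.997 to 0.998. Since the groups stand apart, these values mostly carry the difference between tumors and benign tissue and are given with no p. Aqp5 went from 24.1 ± 9.95 CPM to 2920 ± 1409 CPM, and Scn7a from 108 ± 25.8 CPM to 5.46 ± 1.10 CPM (SD, n = 6 each).

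Of the 8 other genes of the family, 3 had enough counts for the fit. Ecm2, from the chromosome 13 cluster, fell by 3.29 (SE 0.31, edgeR adjusted p = 1.5e-06), and Tsku (tsukushi), an inhibitor of growth factor signaling, fell by 3.67 on the log2 scale (SE 0.25, edgeR adjusted p = 9.0e-08). Chadl, the nearest relative of Chad by name, did not pass (log2 fold change -0.55, SE 0.57, edgeR adjusted p = 0.43). It stood at 8.17 to 41.7 CPM in benign tissue and at 5.78 to 11.5 CPM in 5 tumors, with tumor 5 at 51.9 CPM. Without tumor 5 it was called lower (-1.43, edgeR adjusted p = 0.0053).

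The low family genes were found mostly in benign tissue. Kera (keratocan) had 186 counts over the benign samples and 0 in every tumor, so its mean was at least 10.5-fold lower in tumors, against a floor of 3 counts per library. Benign 2 held 99 of these counts, and without it Kera was at least 6.58-fold lower. Epyc (epiphycan) had 103 counts in benign tissue and 4 in tumors, a ratio of 29.4 after scaling (exact 95% interval 11.1 to 110, counting error only). Benign 3 held 67 of the benign counts, and the ratio was 12.6 without it (4.53 to 48.8). These samples were left out after the values were seen. Podnl1 had 105 and 2 counts, with 53 of the benign counts in benign 1, and Optc (opticin) 28 and 2 counts. Nyx (nyctalopin) had means of 0.372 and 0.272 CPM over the benign samples and the tumors, with overlap. The differences of these genes rest on few counts.

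Genes that build and sulfate the chains went in both directions. Of 28 tested, 4 rose and 15 fell, 9 did not pass, and the median log2 fold change was -0.51. Over all genes tested 63% were called, 28.2% higher and 34.8% lower. The share of chain genes called in either direction was near that of all genes, with a larger part lower and a smaller part higher. Papss1, which makes the sulfate donor, rose from 109 to 576 CPM (log2 fold change 2.40, SE 0.15, edgeR adjusted p = 3.3e-08), and Papss2, which makes the same donor, fell from 61.4 to 3.97 CPM (-3.96, SE 0.52, edgeR adjusted p = 2.9e-05). The sulfate transporter Slc26a2 rose by 2.21 and B4galt4, a galactosyltransferase, by 0.65. Chst1, which sulfates keratan sulfate, fell by 5.02, Chst15, which sulfates chondroitin sulfate, fell by 3.16, and Dse, the epimerase that turns chondroitin into dermatan sulfate, fell by 2.92 on the log2 scale. Most genes of the linkage region, Xylt2, B4galt7, B3galt6, B3gat3 and Fam20b, did not pass, with log2 fold changes of -0.26 to 0.09. Xylt1, also of that region, was called lower, with overlap between the groups (-0.91, SE 0.32, edgeR adjusted p = 0.029).

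Collagens and their crosslinking enzymes were mostly lower. Of 21 tested, 16 fell, 4 rose and 1 did not pass, with a median log2 fold change of -2.66. Of all genes tested, 34.8% were called lower and 28.2% higher. Col6a2, Col6a1 and Col3a1, a fibril collagen, fell, with log2 fold changes of -3.76, -3.58 and -3.57 (edgeR adjusted p = 2.4e-07, 2.1e-07 and 3.1e-06). Those that rose included Col12a1, a collagen on the surface of fibrils (1.79), Plod2, a lysyl hydroxylase of collagen crosslinks (1.67), and Loxl3, a lysyl oxidase (1.37). Col3a1, at 3381 ± 1620 CPM in benign tissue, was still the highest of the list in tumors by CPM, at 285 CPM, and these levels are not scaled for length.

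Receptors and growth factors known to bind these proteins had a median log2 fold change of -0.05, with 5 of 19 higher, 8 lower and 6 that did not pass, again near the 28.2% higher and 34.8% lower of all genes tested. Tgfb3, a ligand bound by decorin and its relatives, rose from 106 to 365 CPM (log2 fold change 1.79, SE 0.21), P2rx7, a receptor tied to biglycan, rose by 1.70, and Egfr, a receptor of decorin, by 1.03. Lrp1, an endocytic receptor, fell by 2.74, Kdr, a vascular growth factor receptor, by 2.27, and Tgfbr3 by 1.53 on the log2 scale. Of the integrin subunits that bind collagen and chondroadherin, Itga1, Itga2, Itga10 and Itga11 were called lower and Itgb1 higher. Their log2 fold changes were -1.46, -1.601, -0.59, -1.95 and 0.38. The call of Itga10 was lost in 6 of the fits that left out 1 sample. The edgeR adjusted p was 0.020 for Itga2 and 0.019 for Itgb1, both with overlap between the groups.

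Proteases that process or cleave the family were called lower in each of the 10 tested, against 34.8% of all genes tested. Their median log2 fold change was -2.32. Adamts4 no longer passed, which left 9, without benign 5, without tumor 1, 3, 4 or 6, or at an adjusted p of 0.05. Htra1, a serine protease, fell by 5.63, Adamts5, an aggrecanase, by 5.05, and Adamts9 by 3.68 on the log2 scale (edgeR adjusted p = 7.1e-09, 1.1e-08 and 7.9e-08). Mmp13, a collagenase, had too few counts for the fit and was the protease with a higher mean in tumors, 3.28 ± 3.55 CPM against 0.310 ± 0.257 CPM (SD, n = 6 each), with overlap. It was called higher once genes with any count were kept.

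Cartilage and tendon genes were examined because Chad was first known from cartilage. Of 17 tested, 12 rose, 1 fell and 4 did not pass, with a median log2 fold change of 2.33. Of all genes tested, 28.2% were called higher and 34.8% lower. Col11a1 and Col9a1, which encode chains of cartilage collagens, rose from 10.3 to 1140.5 CPM and from 13.3 to 1277 CPM (log2 fold changes 6.78 and 6.58, edgeR adjusted p = 1.2e-07 and 4.4e-08). Comp, a matrix protein of cartilage and tendon, rose by 8.02 (SE 1.26), or by 5.72 without tumor 5, which stood at 2142 CPM against 50.6 to 120 CPM in the other tumors. DESeq2 gave no adjusted p for Comp, so it was not called there. Sox9 rose by 1.04 with overlap (edgeR adjusted p = 0.010), and Matn4, a matrilin, fell by 3.21.

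The defining genes of cartilage itself were low. Acan (aggrecan) had 1 count in all benign samples and 70 in tumors, with a mean of 1.55 ± 2.36 CPM in tumors (SD, n = 6), and Col2a1 reached 51.2 CPM in tumor 4 but had a mean of 9.43 ± 20.5 CPM (SD, n = 6). Matn3 was at 0 counts in every benign sample and 6 counts over the tumors. The 9 markers of the cartilage and tendon list in the table summed to 14.3 to 29.4 CPM over the benign samples and to 1106 to 3187 CPM over the tumors, where nearly all of it came from Col9a1 and Comp. Whether these transcripts and those of Chad came from the same cells was not tested.

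**Figure D5:**
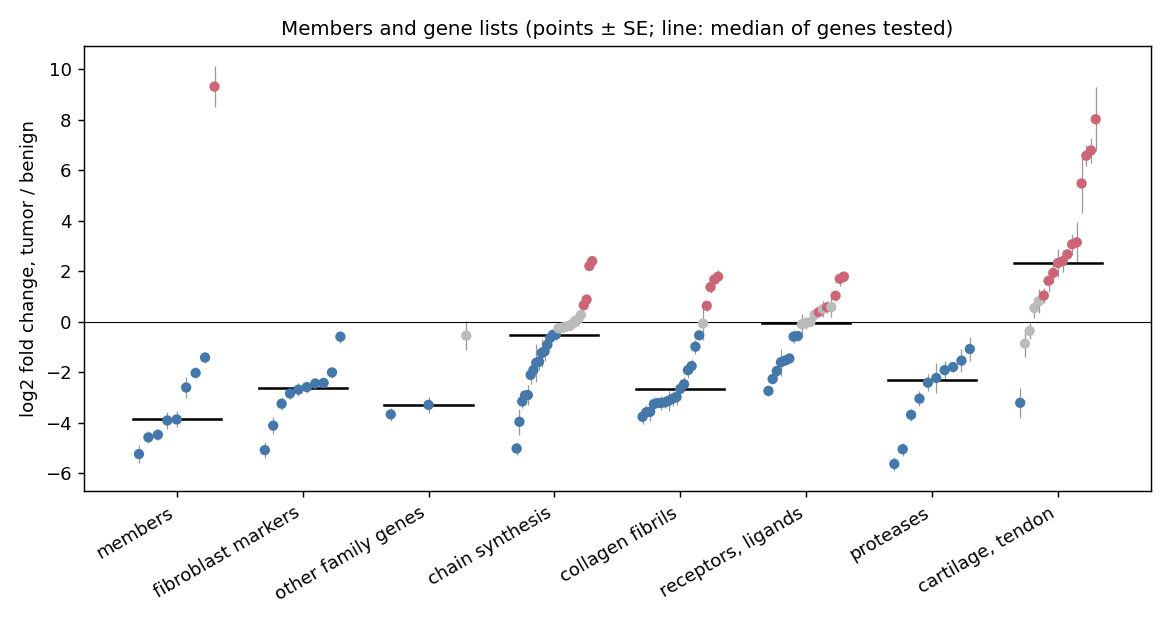
Log2 fold change, tumor over benign, for the 9 members in the fit and for the genes tested in 7 lists, 1 point per gene with its SE and a black line at the median. Red points were called higher, blue points lower and grey points did not pass an adjusted p of 0.1. The cartilage and tendon list has its median above 0, at 2.33, and Chad is the highest point of all.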

How the data were processed

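Poly A RNA of 12 samples was sequenced from NEBNext Ultra II Directional libraries. The submitters' processing notes name Trim Galore, Salmon, DESeq2 and the mm10 build, and the authors deposited estimated counts per gene from Salmon as whole numbers, not scaled for library size. The Salmon version, the annotation and whether strand was used are not given in the sources used here. All columns were matched to samples by name (0 columns left without a sample), and every gene in the table has a sum of at least 5 counts.

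The edgeR package (4.0.16, in R 4.3.3) was used to drop genes with low counts (filterByExpr with group labels, at its settings of 10 counts and 15 in total), to scale libraries (TMM) and to compare the groups by its quasi-likelihood test (two-sided), and p-values were adjusted by Benjamini-Hochberg over all 13191 genes tested and a threshold of 0.1, after the study. The log2 CPM values used 2 added counts. At these depths, 3 counts, the floor for genes at 0, correspond to 0.393 CPM in the tumor libraries on average. Replicates differed by more than sampling noise (smallest chi-square per degree of freedom 12.5 in benign tissue and 16.4 in tumors). The study states that tumors and benign samples came from different mice. Whether the samples within a group came from separate mice is not stated. The fit was checked on simulated counts.

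The members and gene lists were chosen with earlier results of these data known. Named genes were the members, the family, and in each list the 3 largest rises and falls among called genes with at least 10 CPM and no overlap, with Acan, Col2a1, Comp and Sox9, and the 5 genes most like Chad and Dcn. Further list genes (Dse, the integrin genes, Mmp13, Matn3, Matn4 and the linkage genes) and the neighbors were named after their values were seen. Chst5 and Matn1 were not analysed here. Positions and lengths came from GENCODE M21 (GRCm38) and upstream sequences from RefSeq (8 of 10 members). The alternatives were DESeq2 1.42.0, upper-quartile and total count scaling, 2 other filters, a stricter threshold (0.05), a block for the replicate number, and fits that left out each sample in turn or the 3 benign samples with muscle transcripts.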

Additional observations from a re-analysis of the deposited data

Results flagged for a closer look

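Among 93 groups of 6 samples examined for members and list genes, 14 had a highest or lowest sample whose gap to the nearest other, as a share of the group's range, passed Dixon's 95% critical value. A rate of about 1 in 20 groups holds for normally distributed values, which CPM of genes with few counts are not. The 14 are therefore not set against chance. No member was among the 14. In the family, these were Epyc in benign 3 (8.84 CPM), Podnl1 in benign 1 (9.82 CPM), Optc in tumor 3 (0.241 CPM) and Chadl in tumor 5 (51.9 CPM). In the other lists they were Chst1 in tumor 2 (6.60 CPM), Papss2 in tumor 1 (10.9 CPM), Tgfb3 in benign 2 (169 CPM), Egfr in benign 1 (46.7 CPM) and Adamts5 in tumor 3 (12.2 CPM). Among cartilage genes they were Comp in tumor 5 (2142 CPM), Acan in benign 5 (0.125 CPM) and tumor 4 (6.21 CPM), and Col2a1 in benign 5 (0.499 CPM) and tumor 4 (51.2 CPM).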

How the results depend on the processing

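No gene or count examined changed its direction as a called result under any alternative. The 8 stromal members in the fit were called lower under each alternative, and their fitted log2 fold changes stayed within -5.39 to -5.00 for Prelp and -1.63 to -1.27 for Bgn. Leaving out 1 sample at a time gave 8.96 to 9.80 for Chad, 1 member called higher throughout, 8 to 9 called lower, and over all genes 3539 to 4188 called higher and 4208 to 4551 lower. Requiring 10 counts or more in each sample removed Chad, so members called higher went from 1 to 0, and cartilage and tendon genes called lower from 1 to 0. With DESeq2 and with genes of at least 1 count kept, other family genes called lower went from 2 to 6 under either, proteases called higher from 0 to 1 and cartilage and tendon genes called lower from 1 to 2. Without the 3 benign samples with muscle transcripts, other family genes called lower were 4 and proteases called higher 1. The cause of that last change was not tested. Scaling by total counts moved the median of all genes by 0.09 on the log2 scale. Benign and tumor samples share replicate numbers but come from different mice, and same-numbered samples did not deviate together (correlations -0.12 to 0.10). With the replicate number as a block, 1 member was called higher and 8 lower, over all genes 3473 and 4237. Depth limits Chad in benign tissue, Omd and the low family genes.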
